A study of Homo sapiens with 2 samples.

Results

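The RAB genes encode small GTPases that direct membrane traffic. They were taken as the probes whose annotated symbol is RAB followed by a number and at most 1 further letter, without pseudogenes and without interactors such as the RAB11FIP genes. This gave 75 probes for 60 genes, of 18774 genes named on the array. The cells were MDA-MB-231, a widely used invasive breast cancer line with mesenchymal features. One sample was transfected with 20 nM of an siRNA against NSD3L, the longer protein isoform made from NSD3, a gene for a histone H3 methyltransferase, and the other with a non-targeting control siRNA whose concentration was not given in the labels. Per the labels, cells received siRNA 2 times with 48 h between, and were harvested 48 h after the last dose. Expression was read on Illumina beadchips, 1 array per group, as linear intensities without replicates.

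RAB proteins cycle between a GTP-bound form, which sits on a membrane and recruits effectors, and a GDP-bound form, which a carrier protein extracts into the cytosol. Exchange factors load GTP and GTPase-activating proteins trigger its hydrolysis. Each RAB is found on particular membranes, so the family is commonly read as a map of the secretory and endocytic routes. In breast cancer cells, RAB proteins are best known for recycling integrins and growth factor receptors, releasing exosomes and delivering matrix metalloproteinases to the cell surface.

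Of the 60 RAB genes, 45 had a brightest probe above the background floor on both arrays, which is 75% of the family against 56.1% of all genes. The floor, the upper edge of each array's background, was 40.9 in NSD3L siRNA cells and 41.0 in control siRNA cells. RAB6B, a brain-enriched Golgi RAB, passed it on the NSD3L siRNA array alone, at 42.0 against 39.9, and was at least 1.02-fold higher. RAB40A passed it on the control array alone, at 40.4 with the NSD3L siRNA against 43.5, and was at least 1.06-fold lower. The other 13 passed it on neither array. They were RAB3B, RAB3C, RAB3D and RAB37 of regulated secretion, RAB14, RAB17 and RAB25 of recycling endosomes, RAB19, RAB33A, RAB39A, RAB39B, RAB40C and RAB42. RAB17 and RAB25 are best known from epithelial cells. RAB14 is widely expressed, and its single probe read 30.0 against 34.8. A probe under the floor says only that it was not above background here.

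All 8 markers of mesenchymal breast cancer lines passed the floor on both arrays, with summed intensities of 21033 in NSD3L siRNA cells and 19136 in control cells. Of them EGFR, FOSL1 and AXL were more than 1.5-fold higher by their brightest probes, with log2 ratios of 0.94, 0.78 and 0.59, which 3.63% of all genes were. A further EGFR probe above the floor on both arrays had -0.03, so EGFR was not higher by both probes. The part of these marker genes in the RAB differences was not tested. Of 9 luminal breast markers, KRT18, KRT8, CDH1 and EPCAM passed the floor in both samples and read higher in NSD3L siRNA cells. KRT18 read 1731 against 1295, a log2 ratio of 0.42, with 0.01 and 0.30 by further probes. KRT8 read 590 against 542, EPCAM 113 against 110 and CDH1, near the floor, 47.6 against 45.4. ERBB2 passed the floor in the control sample alone by its brightest probe, at 40.8 against 47.5, and had -0.04 by another. ESR1, PGR, GATA3 and FOXA1 passed the floor in neither. Of 6 fibroblast markers, PDGFRB passed it on both arrays, at 55.4 against 55.6, and the other 5, the collagen genes, DCN and LUM, on neither. Of 6 blood and macrophage markers, CD68 read 1195 against 1179, CD14 50.2 against 53.8 and LYZ 47.9 against 45.5, and PTPRC, CD3E and HBB passed it on neither array. Of 5 pigment and secretory cell markers, PMEL and SYP passed it on the control array alone and TYR, MLANA and CHGA on neither. The 3 NSD3 probes all lay near the background. The brightest read 40.8 in NSD3L siRNA cells against 55.3 in control cells, and the other readings were 41.6 against 45.0 and 37.6 against 41.9. They were too dim to establish depletion of the long isoform. In such bulk RNA, less RNA per cell and fewer cells of a kind cannot be told apart.

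The RAB family as a whole was centred on no difference between the NSD3L siRNA and the control siRNA. Of the 45 measured genes, 22 gave a higher and 23 a lower intensity in NSD3L siRNA cells, and the median log2 ratio was -0.0030, against -0.0041 over all 10538 measured genes. Only RAB40B was more than 1.5-fold higher, against a background of 3.63% of all genes. RAB27B, RAB18 and RAB23 were more than 1.5-fold lower, against a background of 4.06%. No RAB gene passed 2-fold, the threshold of the series description, which 0.342% of all genes passed upward and 0.607% downward. At 1.2-fold, a threshold added after seeing the data, 9 RAB genes were higher and 9 lower. These were 40% of the family in all, against 35.1% of all genes, 17% upward and 18% downward. The 4 genes past 1.5-fold were thus near the share that the background gives. The SD of the log2 ratio across genes was 0.32 for the RAB family and 0.33 for all genes. With 1 array per group there was no error between cultures and no test of any difference.

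**Figure D1:**
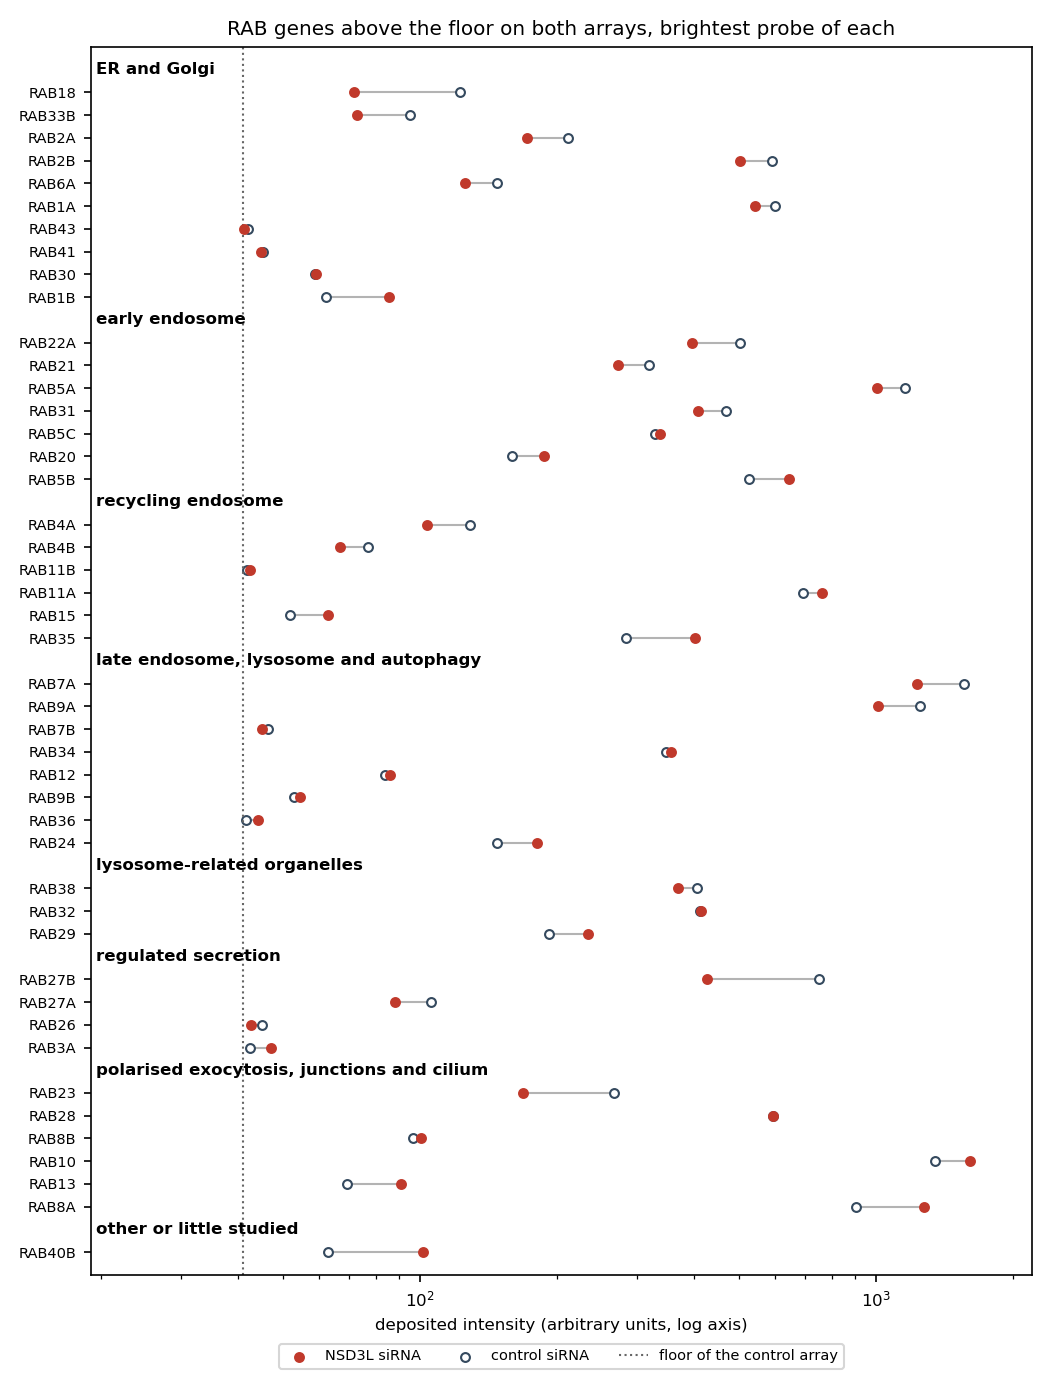
Deposited intensity of the brightest probe of each RAB gene above the floor on both arrays, on a log axis, with the NSD3L siRNA sample as filled points and the control siRNA sample as open points. Values should be compared within a row, since different probes have different responses. The widest gaps are those of RAB27B, at 426 against 749.6, RAB18, RAB40B and RAB23.

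RAB27B had the lowest log2 ratio of the family. It encodes a RAB of secretory vesicles and multivesicular bodies that acts in exosome release. Its brighter probe (ILMN_1837428) had an intensity of 426 in NSD3L siRNA cells, against 749.6 in control siRNA cells, 1.76-fold lower and -0.82 as a log2 ratio. The dimmer probe (ILMN_1672659) read 66.7 against 91.2, a log2 ratio of -0.45. Both probes were thus lower. RAB18, found on the endoplasmic reticulum and lipid droplets, read 71.7 against 122 and was 1.71-fold lower, with a log2 ratio of -0.77. RAB23, a negative regulator of Hedgehog signalling linked to the primary cilium, read 168 against 266, 1.58-fold lower and a log2 ratio of -0.66. Its other probes read 39.5 against 41.3 and 37.8 against 38.5, at or near the floor, and carried little information. RAB40B, which has a SOCS box that joins a cullin ubiquitin ligase and is known from metalloproteinase secretion in this cell line, read 102 against 62.8, 1.62-fold higher and a log2 ratio of 0.69. Among probes of similar brightness over the whole array, the SD of the log2 ratio was 0.40 for RAB27B's brighter probe and for RAB23, and 0.32 for RAB18 and RAB40B. This SD describes the 2 arrays and not the spread between cultures.

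The 250 bases before the annotated start of these 4 genes are shown because the genes hold the family's most extreme ratios. They are taken from RefSeq (GRCh38.p14), 5′ to 3′ in the direction of the gene, with capitals marking matches on either strand to the GC box (GGGCGG), the CCAAT box (CCAAT), the E-box (CACGTG), the cyclic AMP response element (TGACGTCA) or the TATA box (TATAAA). RAB27B lies at chr18:54717607-54717856 on the plus strand, RAB18 at chr10:27504054-27504303 on the plus strand, RAB23 at chr6:57222308-57222557 on the minus strand, and RAB40B at chr17:82698699-82698948 on the minus strand.
RAB27B: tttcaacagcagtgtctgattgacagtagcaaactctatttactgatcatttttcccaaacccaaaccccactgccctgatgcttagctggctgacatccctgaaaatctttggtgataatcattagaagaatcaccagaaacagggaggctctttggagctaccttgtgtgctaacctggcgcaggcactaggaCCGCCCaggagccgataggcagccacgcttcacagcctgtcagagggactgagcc
RAB18: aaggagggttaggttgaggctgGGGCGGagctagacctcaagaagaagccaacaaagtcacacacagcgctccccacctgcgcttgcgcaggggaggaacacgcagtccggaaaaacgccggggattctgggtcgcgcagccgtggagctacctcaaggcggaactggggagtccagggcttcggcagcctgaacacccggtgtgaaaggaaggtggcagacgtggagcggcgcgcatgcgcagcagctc
RAB23: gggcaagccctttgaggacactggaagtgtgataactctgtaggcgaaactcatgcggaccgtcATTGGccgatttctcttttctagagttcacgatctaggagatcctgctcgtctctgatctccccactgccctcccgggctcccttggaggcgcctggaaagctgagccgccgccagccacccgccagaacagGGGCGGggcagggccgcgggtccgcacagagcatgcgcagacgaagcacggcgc
RAB40B: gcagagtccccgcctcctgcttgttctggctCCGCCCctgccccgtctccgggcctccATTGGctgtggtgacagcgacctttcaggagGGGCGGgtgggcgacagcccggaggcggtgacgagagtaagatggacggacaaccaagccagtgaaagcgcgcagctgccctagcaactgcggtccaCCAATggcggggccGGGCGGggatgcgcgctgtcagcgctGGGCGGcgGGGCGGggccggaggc

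The RAB27B window was poor in CpG dinucleotides, with 4 CpGs and 50.4% G and C. RAB18 and RAB23 had 19 each, and RAB40B had 24 with 71.2% G and C. The median was 23 CpGs over the 36 measured RAB genes with a promoter of full length in the table, and 21 over 8705 measured genes. RAB40B held 5 GC boxes and 2 CCAAT boxes, while RAB27B held 1 GC box and no other match. RAB18 held 1 GC box, and RAB23 held 1 GC box and 1 CCAAT box. A GC box was present in 30 of the 36 RAB windows, 83.3%, against 65.9% of windows of measured genes and 42.3% of all 27305 windows. A CCAAT box was found in 30.6%, against 35.6% and 33.0%, and an E-box in 13.9%, against 8.89% and 6.49%. The TATA box was in 2.78%, against 5.79% and 11.1%, and the cyclic AMP response element in 0 of 36, against 3.01% and 1.77%. Across the 36 genes the log2 ratio had a Spearman's rho of 0.19 with the CpG count of the longer window of 300 bases. Across the 8705 measured genes the rho was 0.11. Both values describe genes that share these 2 arrays. A match describes the letters and is not a known binding site.

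RAB genes of the endoplasmic reticulum and Golgi were mostly lower with the NSD3L siRNA. Of 10 measured, 8 were lower, with a median log2 ratio of -0.19, against 50.6% lower and a median of -0.0041 over all genes. RAB2A and RAB2B, of transport between the endoplasmic reticulum and Golgi, were both lower. RAB2A read 172 against 211, a log2 ratio of -0.30, with -0.34 by its dimmer probe, and RAB2B read 502 against 591, a log2 ratio of -0.23. RAB6A, which controls traffic at the trans-Golgi network, read 126 against 148, and RAB33B, a Golgi RAB that binds the autophagy factor ATG16L1, read 72.7 against 95.1 with a log2 ratio of -0.39. The pair that drives vesicles into the Golgi was split. RAB1A read 542 against 602, a log2 ratio of -0.15, and RAB1B read 85.7 against 62.3, a log2 ratio of 0.46. Only RAB1B and RAB30 were higher in this group, RAB30 by a log2 ratio of 0.01, while RAB41 and RAB43, read near the background, had ratios of -0.02 and -0.03.

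In regulated secretion, RAB27A was also lower, by less than RAB27B. Its log2 ratio was -0.26, from 88.4 in NSD3L siRNA cells against 106 in control cells, and its 2 further probes were under the floor on both arrays. RAB26, of secretory granules, had -0.08 at 42.6 against 45.1, and RAB3A, the synaptic vesicle RAB, had 0.15 at 47.2 against 42.3. Both lay near the floor, and had -0.39 and 0.72 with the most frequent intensity of each array subtracted. The 4 measured genes had a median of -0.17, which depended on the floor, at -0.08 with each array's median as floor, -0.07 with none and -0.54 with the 75th percentile. The other 4 of the 8 genes in this group were above background on neither array.

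The RAB8 subfamily, which carries vesicles to the plasma membrane, was higher in 4 of 4 genes, as 49% of all measured genes were. RAB8A, of polarised exocytosis and cilium formation, gave 1276 in NSD3L siRNA cells and 904 in control cells, 1.41-fold higher and a log2 ratio of 0.50. RAB10, of basolateral transport and insulin-stimulated glucose transporter delivery, read 1607 against 1345, a log2 ratio of 0.26. RAB13, of tight junctions, read 90.7 against 69.2, a log2 ratio of 0.39, and its dimmer probe had 0.30. RAB8B was close to no difference, at 101 against 96.7, with a log2 ratio of 0.06. The ratios of the subfamily thus ran from 0.06 to 0.50, and all lay under 1.5-fold. RAB28, the remaining member of the exocytosis, junction and cilium group beside RAB23, read 595 against 596, with log2 ratios of -0.0030 and -0.05 by its 2 probes.

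**Figure D2:**
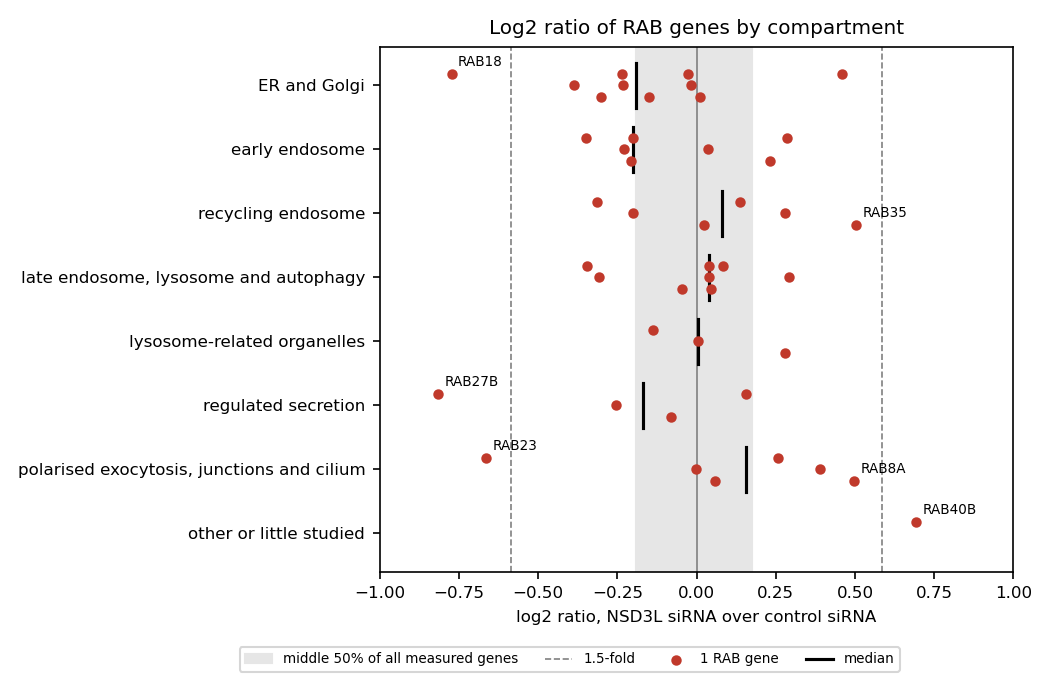
Log2 of the intensity with the NSD3L siRNA over that with the control siRNA for each of 45 RAB genes, by the compartment where the protein is best known, with black bars for group medians and the grey band for the middle 50% of all measured genes. Medians run from -0.20 in the early endosome to 0.16 in exocytosis, junctions and cilium among groups with over 1 gene, and only RAB27B, RAB18, RAB23 and RAB40B lie beyond the dashed 1.5-fold lines.

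Early endosomal RAB genes were all above the floor, and 4 of 7 were lower, against 50.6% of all measured genes. Their median log2 ratio was -0.20, or -0.085 with the gene density trend described below removed. RAB5, the regulator of early endosome fusion, has 3 genes, which differed in direction. RAB5A read 1005 in NSD3L siRNA cells against 1160.3 in control cells, a log2 ratio of -0.21. RAB5B read 643 against 528, a log2 ratio of 0.28, and RAB5C read 337 against 328, one of 0.04. RAB22A and RAB31, close relatives of RAB5, were both lower. RAB22A read 395 against 504, a log2 ratio of -0.35, and RAB31 read 408 against 469, one of -0.20. RAB21, of integrin endocytosis, had -0.23, and RAB20, known from macrophage phagosomes, had 0.23.

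Recycling endosomal RAB genes went both ways around a median log2 ratio of 0.08, with 4 of 6 higher, against 49% of all measured genes. RAB35, of fast recycling and cytokinesis, had 402 in NSD3L siRNA cells and 283 in control cells, 1.42-fold higher and a log2 ratio of 0.50, next below RAB40B in the family. RAB4A and RAB4B, also of fast recycling, were lower, at 104 against 129 and 66.8 against 76.8, with ratios of -0.32 and -0.20. RAB11A, the main RAB of slow recycling, read 761 against 693, a ratio of 0.14, and RAB15, a RAB of receptor recycling, read 62.9 against 51.9, a ratio of 0.28. RAB11B had a ratio of 0.02, with both readings just above the floor.

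Late endosomal, lysosomal and autophagy RAB genes had a median log2 ratio of 0.04 over 8 genes. Of these, 5 were higher, most of them slightly, against 49% of all measured genes. With the gene density trend removed the median was -0.05, and RAB34, at -0.08, and RAB9B, at -0.02, were on the lower side. RAB7A, which brings late endosomes to lysosomes, read 1228 in NSD3L siRNA cells against 1561 in control cells, a log2 ratio of -0.35. RAB9A, which returns mannose 6-phosphate receptors to the Golgi, read 1009 against 1249, one of -0.31. Their relatives RAB7B and RAB9B read close to the background, with ratios of -0.04 and 0.05. RAB24, linked to autophagy, was the highest of the group at 180.4 against 147, a ratio of 0.29, with 0.21 by its second probe. RAB34, RAB12 and RAB36 had ratios of 0.04, 0.04 and 0.08. Among RAB genes of lysosome-related organelles, RAB32 read 413 against 412, RAB38 read 369 against 406 with a ratio of -0.14, and RAB29 read 233 against 192 with a ratio of 0.28. RAB32 and RAB38 are best known from melanosomes, and the pigment cell genes TYR and MLANA were above the floor on neither array.

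Across the 14 subfamilies with at least 2 measured genes, all members were higher in 3, all were lower in 6, and 5 were mixed. Over all measured genes 49% were higher and 50.6% lower, so a shared direction in a pair carries little information. Some shared directions rested on ratios near 0, as for RAB34 and RAB36 at 0.04 and 0.08, or RAB11B at 0.02. The widest split was that of RAB1, with 0.61 between the log2 ratios of RAB1B and RAB1A, followed by 0.56 within RAB27 and 0.49 within RAB5. For the 5 RAB genes with 2 probes above the floor on both arrays, all pairs had the same sign, and the gap was 0.37 for RAB27B and between 0.04 and 0.09 for RAB28, RAB2A, RAB24 and RAB13.

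The deposited intensities kept a background, which draws the ratios of dim probes toward 0. With the most frequent intensity of each array subtracted, the log2 ratio was -0.87 for the brighter and -0.82 for the dimmer RAB27B probe, so the gap between them fell to 0.05. It also fell for RAB13, whose probes then had 0.70 and 0.75, but rose for RAB24, to 0.37 and 0.66, for RAB2A and slightly for RAB28. Under this setting RAB18 had -1.25 and RAB40B 1.26, both past 2-fold as 5.81% of all genes then were, and 5 genes were more than 1.5-fold higher and 4 lower. The higher ones were RAB40B, RAB1B at 0.89, RAB15, RAB3A and RAB13, and the lower ones RAB18, RAB27B, RAB23 and RAB33B. The subtraction also enlarges the noise of dim probes, and 10.7% and 12.1% of all genes then passed 1.5-fold upward and downward.

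**Figure D3:**
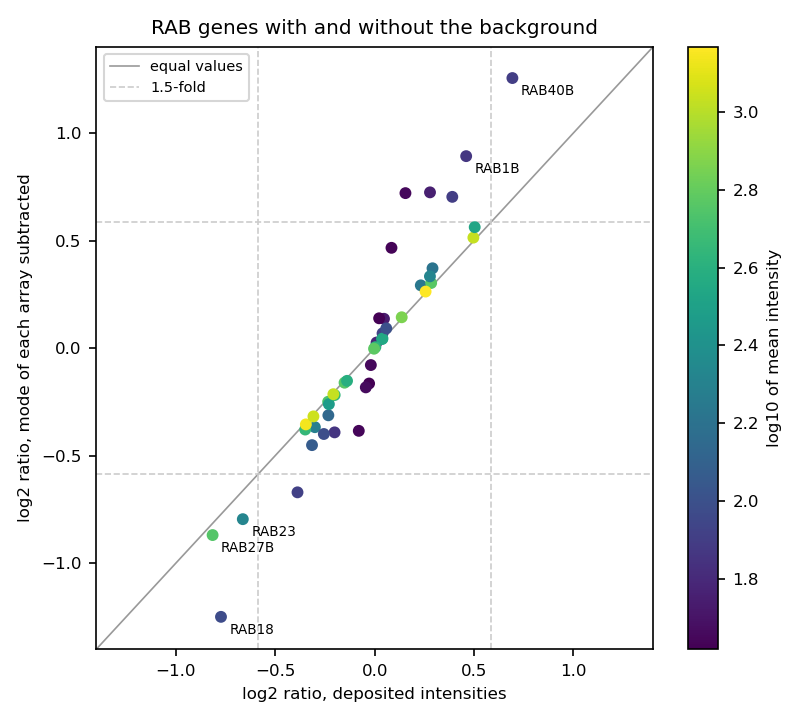
Log2 ratio of each of 45 RAB genes after subtraction of each array's most frequent intensity, against that from the deposited intensities, coloured by the log10 of mean intensity, with the line of equal values. Bright probes lie on the line, while RAB18, RAB40B and RAB1B move away from 0, to -1.25, 1.26 and 0.89.

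The log2 ratios of RAB genes moved with local gene density, counted as the further protein-coding genes that lie within 500 kb, as ratios did over the whole array. Spearman's rho was 0.48 and Pearson's r 0.46 across the 45 RAB genes, and 0.32 and 0.29 across 10162 genes, as descriptions of genes that share the same 2 arrays. Of 22 RAB genes in neighbourhoods denser than the median of all genes, 11 neighbours, 14 were higher with the NSD3L siRNA. Of the 23 others, 15 were lower. Over all genes, 61.5% were higher in the denser and 37.1% in the sparser neighbourhoods. The 3 RAB genes more than 1.5-fold lower had few neighbours, 4 for RAB27B, 6 for RAB23 and 7 for RAB18. RAB40B, the only one more than 1.5-fold higher, had 20. The next highest ratios belonged to RAB35, RAB8A, RAB1B and RAB13, with 19, 22, 47 and 32 neighbours. Higher ratios were also seen with few neighbours, as for RAB20 with 6, and near the median, as for RAB10 with 10. Lower ratios were also seen with many, as for RAB2B at -0.23 with 22 and RAB4B at -0.20 with 26. With this trend removed, RAB27B had a log2 ratio of -0.69, RAB18 of -0.68 and RAB40B of 0.62, and RAB23, at -0.56, was under 1.5-fold. The RAB8 subfamily then had ratios of 0.14 for RAB8B, 0.27 for RAB13, 0.30 for RAB10 and 0.42 for RAB8A, and the early endosomal median was -0.09. Ratios near 0 changed sign for RAB28, to 0.12, RAB5C, to -0.08, and RAB11B, to -0.07, as well as for RAB34 and RAB9B. The part of gene density in the other differences was not tested.

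**Figure D4:**
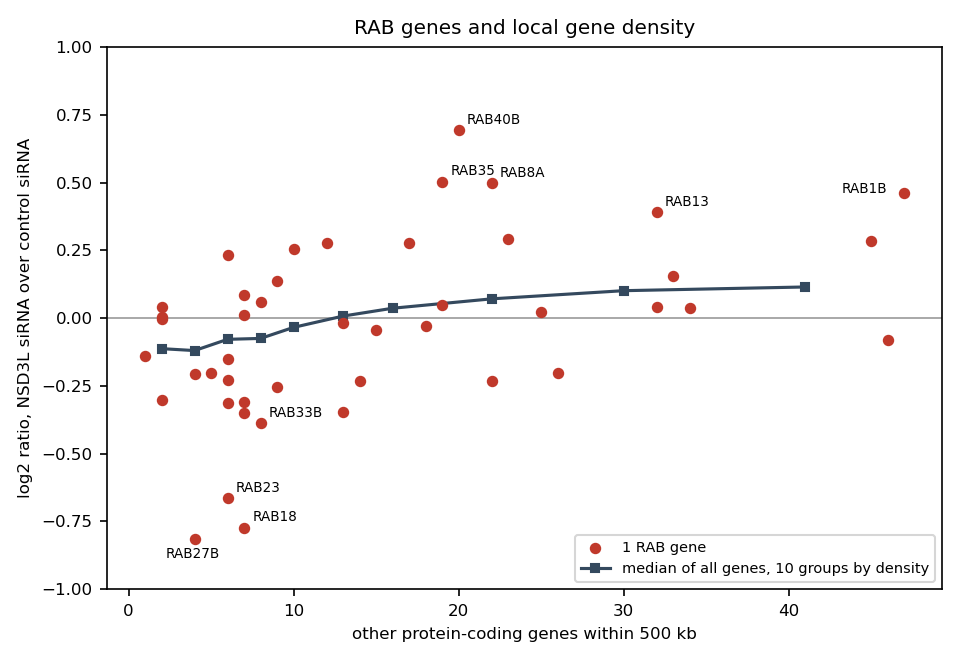
Log2 of the intensity with the NSD3L siRNA over that with the control siRNA, against local gene density, the count of further protein-coding genes within 500 kb, for 45 RAB genes as points and for all genes as medians of 10 equal groups by density. RAB27B, RAB18 and RAB23 lie at the sparse end with 4 to 7 neighbours, and RAB40B, RAB35, RAB8A, RAB13 and RAB1B at 19 or more.

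Exchange factors, which activate RAB proteins, had a median log2 ratio of -0.07 over 45 measured genes, with 20 higher and 25 lower. No gene of the list was more than 1.5-fold higher, against 3.63% of all genes, and 4 were lower, against 4.06%. TRAPPC13, a subunit of the TRAPPIII form of the complex that activates RAB1, read 92.6 in NSD3L siRNA cells against 157 in control cells, a log2 ratio of -0.76, or -0.40 by a dimmer probe. TRAPPC6B, another TRAPP subunit, read 236 against 370.3, a ratio of -0.65. DENND6A, an exchange factor for RAB14, read 125 against 195 with -0.64, and -0.70 by a second probe, and DENND1B, an exchange factor for RAB35, read 77.2 against 120.01 with -0.64. None of the 4 stayed past 1.5-fold throughout, since removal of the gene density trend gave -0.53 for TRAPPC6B, -0.56 for DENND6A and -0.51 for DENND1B, and the mean over probes gave -0.58 for TRAPPC13.

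GTPase-activating proteins, which switch RAB proteins off, had 13 higher and 15 lower of 28 measured genes and a median log2 ratio of -0.01, which became 0.09 after removal of the density trend. TBC1D22B, a Golgi-associated member of the TBC family, read 330 in NSD3L siRNA cells against 188 in control cells, 1.76-fold higher. It was the only one of the 28 past 1.5-fold, which 3.63% of all genes passed upward and 4.06% downward. RABGAP1L, outside the 28, passed the floor on the control array alone by its brightest probe. It read 40.6 with the NSD3L siRNA against 62.3, a log2 ratio of -0.62, with the lower reading at background. TBC1D19 had a ratio of -0.51, TBC1D7, a subunit of the TSC complex, one of -0.44, and SGSM2, which acts on RAB32 and RAB38, one of 0.41. The list of carriers, chaperones and prenylation enzymes had 5 higher and 6 lower of 11 genes, a median of -0.03 and none past 1.5-fold. GDI2, the carrier that extracts RAB proteins from membranes, read 2087 against 2133. The lowest were ARL6IP5, a PRA1 family protein, at 1054 against 1533 with -0.54, and FNTA and PGGT1B, subunits of other prenyltransferases, at -0.49 and -0.41. PGGT1B had 0.08 and FNTA -0.19 by a further probe. CHML, a RAB escort protein, had -0.26.

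Effectors, the proteins that active RABs recruit, went both ways, with 25 higher and 27 lower of 52 genes and a median log2 ratio of -0.01. Of the 52, 2 were more than 1.5-fold higher and 3 lower, against 3.63% and 4.06% of all genes. RBSN, rabenosyn-5, which binds RAB5 and RAB4 on early endosomes, had 165 in NSD3L siRNA cells against 335 in control cells, 2.03-fold lower and a log2 ratio of -1.02. RBSN was the only gene of the 4 lists past 2-fold, which 0.607% of all genes passed downward and 0.342% upward. It passed narrowly, and was under 2-fold with an offset of 16, at -0.96. Of 4 measured RAB11FIP genes, encoding RAB11 effectors, 3 were higher and 1 lower. RAB11FIP5 read 458 against 253, a ratio of 0.85, and RAB11FIP2 read 84.1 against 137, a ratio of -0.71. RAB11FIP3 and RAB11FIP1 had ratios of 0.40 and 0.12. VPS41, of the HOPS tethering complex at late endosomes, read 167 against 272, a ratio of -0.70, or -0.47 by a second probe and -0.58 as the mean over probes. SYTL4, granuphilin, an effector of RAB27, was higher at 253 against 157, a ratio of 0.69.

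**Figure D5:**
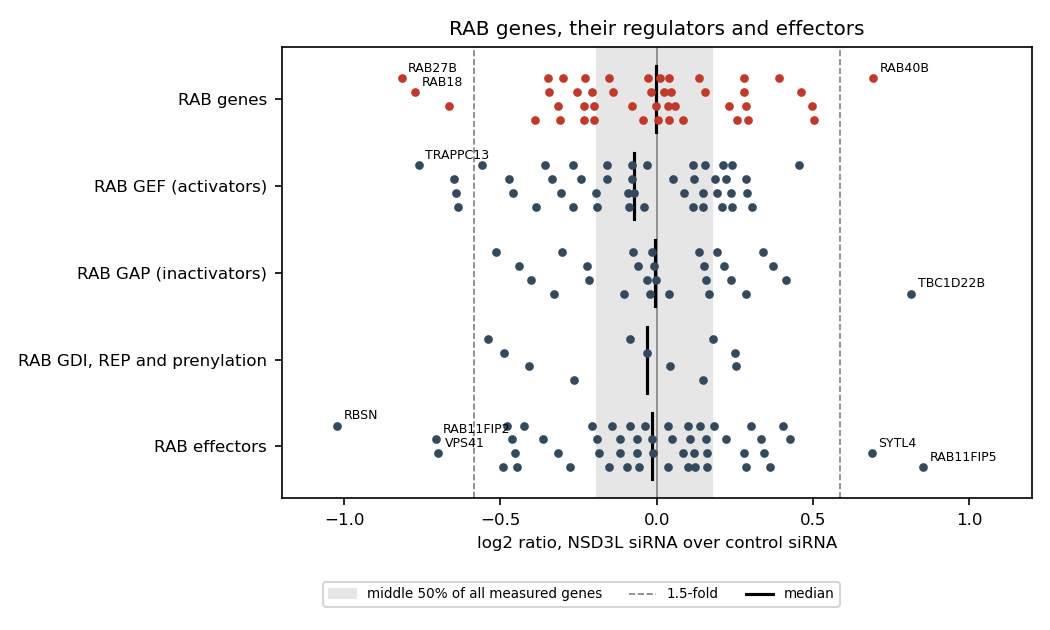
Log2 of the intensity with the NSD3L siRNA over that with the control siRNA for each measured RAB gene and each gene of the 4 lists of regulators and effectors, with black bars for medians and the grey band for the middle 50% of all measured genes. All 5 medians lie between -0.07 and -0.0030, and RBSN at -1.02 is the only point past 2-fold.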

How the data were processed

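Total RNA of MDA-MB-231 cells was measured in 1 NSD3L siRNA and 1 control siRNA sample, grouped by the labels. The authors' deposited table gives 1 linear intensity per probe for 48701 probes. Per the submitters' processing notes BeadStudio was used. For its version, background correction and normalization, the sources used here give nothing. The arrays shared nearly 1 distribution, with a largest difference at any rank of 0.025 on the log2 scale, and intensities ran from 23.8 to 17421.

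The log2 ratio was computed from the deposited intensities with no further scaling. The floor was 2 times the mode of each array less its 1st percentile, and the brightest probe stood for a gene. Python 3.11.15, pandas 2.3.3, scipy 1.17.1 and statsmodels 0.14.6 were used, and the code for the ratio and probe choice was run on simulated data. The simulated data had less noise than these arrays and changes of 2-fold or more. That run checked the code and not the differences reported here. Symbols come from a probe annotation whose match to array version 3.0, named in the series description, was not established, and were updated through RefSeq. Several RAB genes are close copies, and whether their probes tell them apart was not tested.

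With 1 array per group no test was possible, and precision is limited by the number of arrays. The RAB members, compartments and lists were chosen with earlier results of these data known. By the rule for naming, RAB genes past 1.5-fold and their subfamilies have values in full, other RAB genes at most 3 examples per compartment, and each list up to 4 genes with the largest ratio. The text goes past that limit in naming every measured RAB gene. SYTL4, GDI2, RAB11FIP1 and RAB11FIP3 lie outside the rule and were picked with their values in view. RABGAP1L, above the floor on 1 array, is named beside the 4 of its list.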

Additional observations from a re-analysis of the deposited data

How the results depend on the processing

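The median log2 ratio of the RAB family stayed within 0.1 of the value given under all 11 alternatives, and the count of RAB genes more than 1.5-fold lower was 3 or within 1.5 times of it. RAB27B, RAB18 and RAB40B kept their direction in each. The count more than 1.5-fold higher was 0 with an offset of 16, where RAB40B had 0.58, and 5 with the mode subtracted, which also put 2 genes past 2-fold. A 3-fold threshold gave 0 higher and 0 lower, and one of 1.2-fold, chosen after seeing the data, gave 9 and 9. Compartments with few genes were the least stable. The median for regulated secretion was -0.39 with the mode subtracted and -0.54 with the 75th percentile as floor, where fewer genes are measured, but -0.08 with the median as floor and -0.07 with no floor. That for late endosome, lysosome and autophagy turned to -0.05 with the gene density trend removed. That for little studied RAB genes, which is RAB40B alone, was 0.58 with the offset, 1.26 with the mode subtracted, 0.29 with the median as floor and -0.018 with no floor, and the lower floors add genes at background. Removal of the gene density trend gave -0.085 for the early endosome and 0.12 for lysosome-related organelles. The same removal put RBSN just under 2-fold, as did the offset, at -0.96, and put TRAPPC6B, DENND6A, DENND1B and VPS41 under 1.5-fold. The offset also put DENND6A and DENND1B there, and the mean over probes put TRAPPC13 and VPS41 there, both at -0.58. Single genes were recomputed 675 times in all, but many of these recomputations could not move a ratio. The changes of floor and the current symbols left the ratio of each brightest probe as it was. Further scaling of the arrays changed little, since they already shared nearly 1 distribution. The total therefore overstates how far the ratios were tested. In 19 cases the ratio shifted beyond the SD among probes of like brightness, 15 of them with the mode subtracted, and no gene past 1.5-fold changed sign. Members by current symbol were the same genes. No paired analysis was possible because each group has 1 sample. Dim probes, with readings near the floor, limit what could be seen for RAB genes such as RAB11B, RAB41 and RAB43.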
